A study of Mus musculus with 6 samples.

Results

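Genes of macrophages and other leukocytes were followed in whole lungs of mouse embryos. Of 37 gene symbols listed for these cells, 36 were rows of the expression table, out of 24341 rows in all. The symbol Emr1 is an older name of Adgre1 and had no row of its own. The genes were listed by symbol as markers of these cells, with earlier results of these data known. Shares of members set beside those of all tested genes are therefore descriptions and not independent support. RNA-seq libraries came from C57BL/6 lungs at embryonic day 12.5 (E12.5), 3 for each of 2 genotypes. Mutant lungs had the genotype Shh-Cre;Sin3a flox/flox, while control lungs had the genotype Shh-Cre;Sin3a flox/+. Both groups therefore carried Shh-Cre and at least 1 floxed allele of Sin3a, which encodes a scaffold of a histone deacetylase complex. Shh-Cre drives recombination in the lung epithelium, while each library holds RNA of all cells of the dissected lung, leukocytes included. The labels do not say whether a library was 1 embryo or a pool, and p-values measure the spread between these libraries.

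Macrophages are the main leukocytes of the embryonic lung. They arise from yolk sac and fetal liver progenitors, depend on the receptor Csf1r and the transcription factor PU.1 (Spi1), and clear dying cells. Fc receptors, Trem2 and related receptors pass their signals through the small adapters Fcer1g and Tyrobp. The C1q proteins, which macrophages secrete, start the classical complement pathway and tag debris for uptake.

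Values are FPKM, fragments scaled by transcript length and library size, a scale on which levels of different genes can be set side by side. The differences given as log2 changes are those of log2(FPKM + 1), mutant minus control, and were tested with limma over all 12742 genes whose mean reached 1 FPKM. A gene was called when its Benjamini-Hochberg adjusted p was under 0.05. Absolute depth is unknown, since no read counts were used. Relative to control library 1, depth estimated from low values was 0.804 and 0.532 in control libraries 2 and 3, and 0.503, 1.27 and 1.08 in mutant libraries 1, 2 and 3. Sin3a itself measured 19.5, 18.6 and 18.6 FPKM in the controls and 18.8, 16.3 and 18.8 FPKM in the mutants, a gene-level value that does not show recombination in the epithelium.

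Most of the macrophage genes had higher mean levels in the mutant lungs. Tyrobp rose 1.65-fold, Trem2 1.86-fold and Cx3cr1 1.68-fold, and these 3 of the 29 tested members were called higher (10.3%), beside 1.71% of all tested genes. None was called lower, beside 1.63% of all tested genes. At an unadjusted p under 0.05 there were 18 members, all higher in mutants, against 11.3% of all tested genes that were higher at that level. In 16 of the 29 (55.2%) each mutant library lay above each control library, which held for 14.9% of all tested genes. In 0 members did each mutant library lie below each control library, against 14.6% of all tested genes. The median log2 change was 0.49 over the tested members and -0.01 over all tested genes. In RNA from whole lungs, more leukocytes and more RNA per leukocyte cannot be told apart.

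The direction was shared by nearly all members. Log2 changes were positive in 28 of the 29 tested members, against 48.7% of all tested genes, and ranged from -0.13 (Pf4) to 0.96 (C1qb). Pf4 turned to 0.03 when each library was rescaled to a common sum of FPKM. Of all 36 members, including the 7 under the filter, 34 had a higher mean FPKM in mutants, the other 2 being Pf4 and Apbb1ip. Ptprc passed the filter through the mutant libraries, its control mean being 0.830 FPKM. Cx3cr1 lay just inside the threshold (adjusted p = 0.0496) and Stab1 just outside it (adjusted p = 0.051). Rescaling whole libraries moved the number of calls. With a common sum, 11 members were called higher, beside 7.38% of all tested genes. The median change of all genes then moved to 0.14. Without globin and small RNA genes 11 were called higher, beside 6.7% of all tested genes, and that median was 0.11. The members' median exceeded that of all genes by 0.49 in each of these 2 cases and as reported. A single factor per library shifts all genes nearly alike on the log2 scale. This equal distance therefore follows from the rescaling and is no further support. With a common sum 12.2% of all calls were lower in mutants and without the globin and small RNA genes 17.5%, compared with 48.8% as reported.

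**Figure D1:**
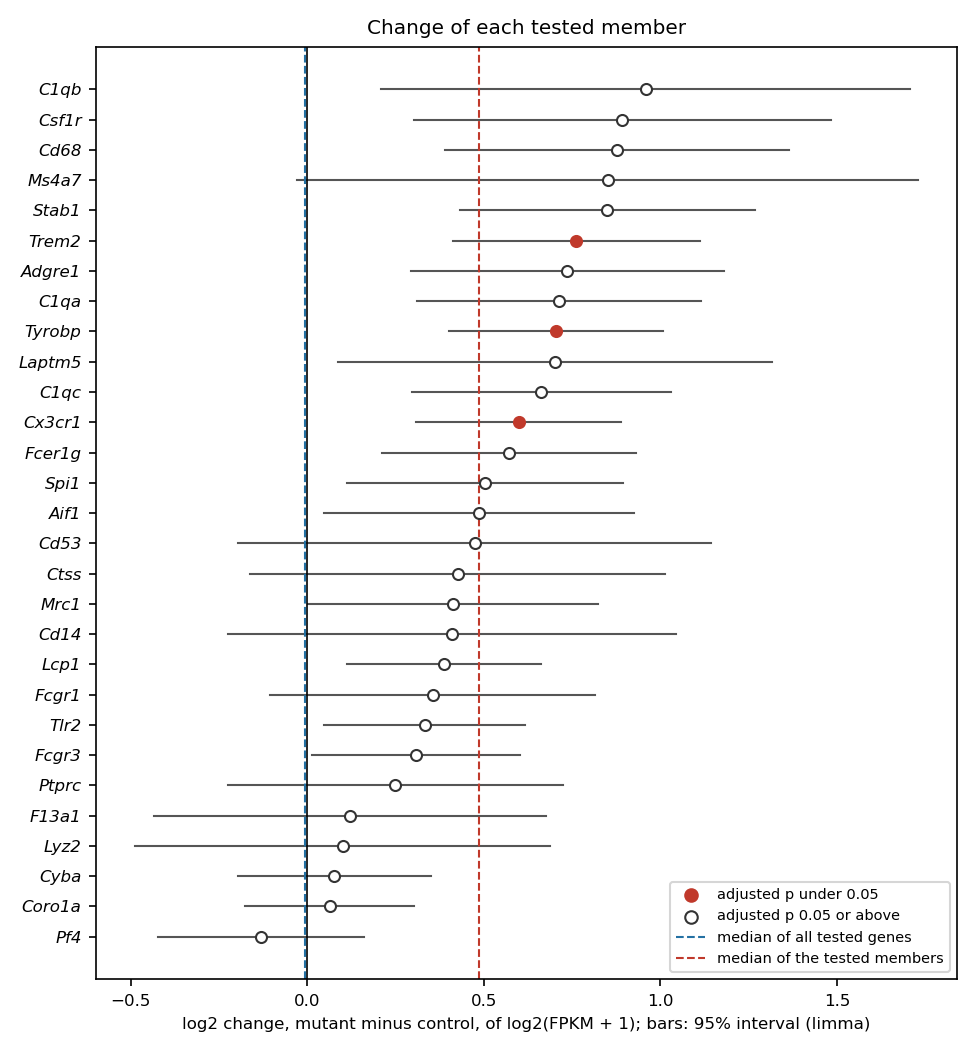
Log2 change of each tested member, mutant minus control, on the log2(FPKM + 1) scale, with the 95% interval from limma as a bar. Red points are the 3 called members, dashed lines mark the medians of the members (0.49) and of all tested genes (-0.01), and 28 of the 29 points lie above 0 (29 with a common sum of FPKM).

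Mutant library 2 stood apart from the other mutant libraries. It had the highest value of all 6 libraries in 24 of the 29 tested members, while control library 2 had the lowest in 15. The median difference of the members from their control means was 0.42, 0.79 and 0.41 on the log2 scale in mutant libraries 1, 2 and 3. In the control libraries it was 0.06, -0.11 and 0.00. Mutant library 2 was also the deepest library, and whether depth had a part in its values was not tested. Without it the median change of the members was 0.37, 24 of 29 changes were positive and 0 members were called, while 52 genes were called in all. Without control library 1, 2 or 3 also 0 members were called, while 61, 66 and 64 genes were called in all. Without mutant library 1, 7 members were called higher, beside 2.84% of all tested genes. Without mutant library 3 there were 2 (Tyrobp and Cd53), beside 1.09% of all tested genes. The median coefficient of variation of the members was 15.3% in controls and 23.1% in mutants, against 8.71% and 13.1% over all tested genes. Members and other genes were not matched for expression level in this comparison.

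**Figure D2:**
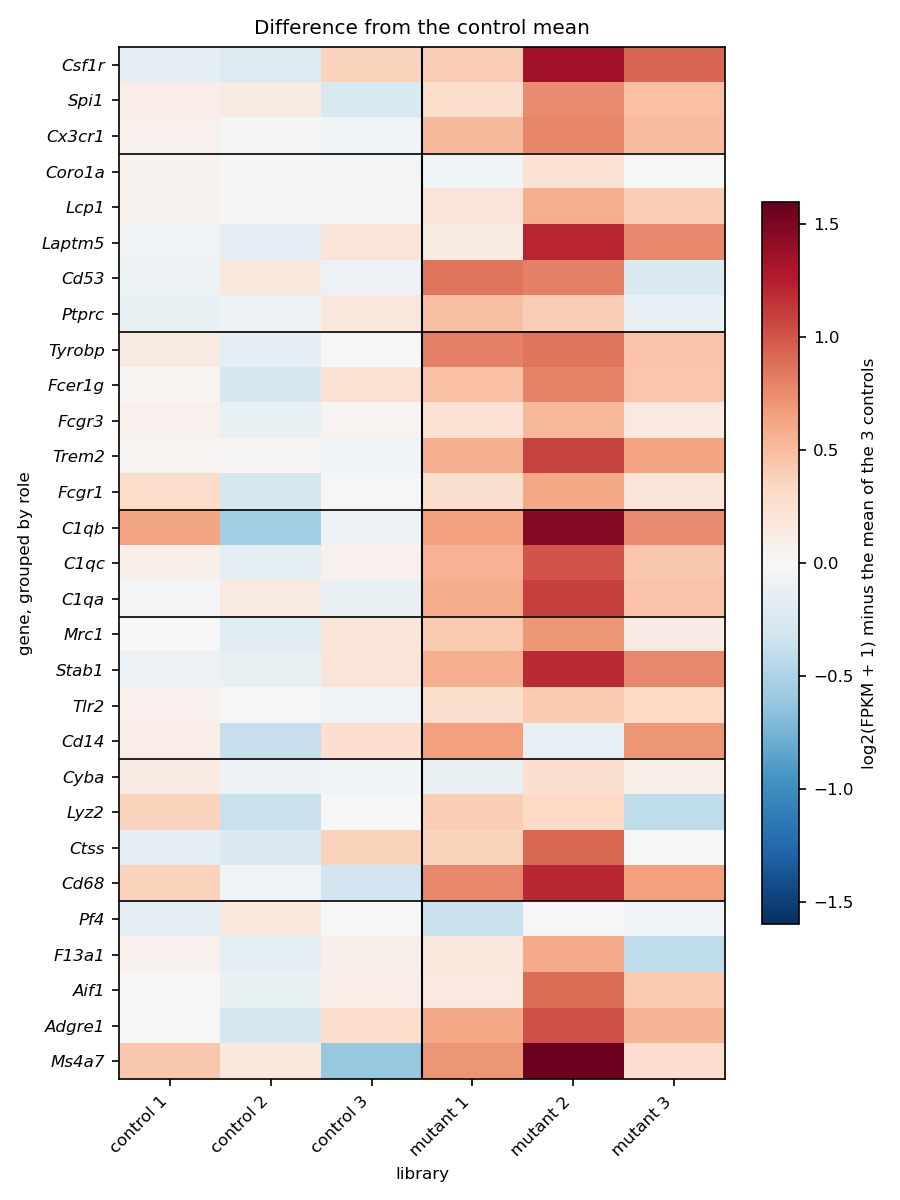
Difference of each library from the mean of the 3 controls, in log2(FPKM + 1), for the 29 tested members in rows grouped by role. The column of mutant library 2 is the reddest, with a median difference of 0.79, and mutant libraries 1 and 3 have medians of 0.42 and 0.41.

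Upstream sequence was read from RefSeq (GRCm38.p6) as a further description of these genes. Promoter windows were found for 30 of the 36 members, 36 windows in all, since some genes have several starts. The called member Tyrobp had no window and was not searched, nor were Spi1, Csf1r, C1qa, Adgre1 and Cd14. In the 250 bases before the start, the letters GAGGAA, the core that PU.1 recognises, were searched on both strands. They occurred in 17 of the 36 member windows (47.2%), against 23.3% of the 32851 windows of all genes. Windows of the same gene can overlap and share a match, as in Fcgr3. Counted by gene, the letters occurred in 16 of the 30 members with a window (53.3%), against 25.9% of all genes. The windows of members had a median GC content of 46.8% and a median of 4 CpG dinucleotides, against 52.4% and 6 over all windows. In 28 of the 36 the CpG number was under the median of all windows. A match of these letters is a description and not a binding site. The genes were chosen as genes of macrophages, which depend on PU.1, so this search was not independent of their choice. The 4 windows below belong to the members with the smallest p-values among those whose window overlaps no annotated exon. They are written 5′ to 3′ on the strand of the gene and end at the base before the start, with matches on either strand in capitals. Trem2 lies at chr17:48346151-48346400 on the plus strand, Stab1 at chr14:31168642-31168891, Cd68 at chr11:69666171-69666420 and C1qb at chr4:136886201-136886450, the last 3 on the minus strand.
Trem2: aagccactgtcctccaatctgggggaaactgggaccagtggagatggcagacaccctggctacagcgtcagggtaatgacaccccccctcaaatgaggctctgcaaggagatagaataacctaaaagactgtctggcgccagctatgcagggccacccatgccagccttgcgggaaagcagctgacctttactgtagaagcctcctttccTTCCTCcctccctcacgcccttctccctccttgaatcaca
Stab1: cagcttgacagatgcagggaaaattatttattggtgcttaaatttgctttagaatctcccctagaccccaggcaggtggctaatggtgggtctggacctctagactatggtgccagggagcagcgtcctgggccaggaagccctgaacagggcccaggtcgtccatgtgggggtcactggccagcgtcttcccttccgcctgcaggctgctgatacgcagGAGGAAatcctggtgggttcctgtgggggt
Cd68: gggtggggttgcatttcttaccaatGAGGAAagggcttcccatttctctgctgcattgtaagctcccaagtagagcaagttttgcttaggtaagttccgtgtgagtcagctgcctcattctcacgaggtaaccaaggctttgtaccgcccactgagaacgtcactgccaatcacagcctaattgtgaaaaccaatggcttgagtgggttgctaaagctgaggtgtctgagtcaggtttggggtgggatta
C1qb: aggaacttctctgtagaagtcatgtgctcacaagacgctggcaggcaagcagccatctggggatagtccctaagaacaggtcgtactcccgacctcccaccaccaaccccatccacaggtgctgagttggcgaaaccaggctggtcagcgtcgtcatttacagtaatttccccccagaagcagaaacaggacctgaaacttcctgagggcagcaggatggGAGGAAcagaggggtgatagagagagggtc

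The match began 40 bases before the start in Trem2 and 30 bases before it in both Stab1 and C1qb. In Cd68 it began 225 bases before the start. The called member Cx3cr1 had a promoter window in which these letters did not occur, as had Fcer1g, Coro1a, Cyba and Lyz2.

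Regulators of macrophage identity held 1 of the called members. Csf1r, the receptor for the growth factors CSF1 and IL-34 on which macrophages depend, measured 7.90, 7.57 and 11.8 FPKM in control libraries 1 to 3 and 12.2, 24.1 and 17.9 FPKM in mutant libraries 1 to 3. The groups did not overlap, though the lowest mutant and the highest control library were close. The ratio of the means was 1.98, with a log2 change of 0.89 (SE 0.25, adjusted p = 0.099). Spi1, which encodes the transcription factor PU.1, measured 3.82, 3.93 and 2.80 FPKM in controls and 4.45, 6.60 and 5.20 FPKM in mutants. Here too each mutant library was above each control library, 1.54-fold on average (log2 change 0.50, SE 0.17, adjusted p = 0.13). Cx3cr1, the fractalkine receptor of monocytes and resident macrophages, measured 3.36, 3.07 and 3.02 FPKM in controls and 4.92, 6.13 and 4.85 FPKM in mutants. The control values lay within a narrow band well below all 3 mutant values. Its log2 change was 0.60 (SE 0.12, 95% interval 0.31 to 0.89, adjusted p = 0.0496). The gene lies on chromosome 9 from 120048683 to 120068296 in GRCm38.

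Fc receptors and their adapters held the other 2 called members. Tyrobp (DAP12), on chromosome 7 from 30413788 to 30417579, is the adapter that carries the ITAM signalling motif for Trem2 and other receptors. It measured 59.8, 49.2 and 54.5 FPKM in controls and 96.0, 98.8 and 74.8 FPKM in mutants, a log2 change of 0.71 (SE 0.13, 95% interval 0.40 to 1.01, adjusted p = 0.036). Its partner Trem2, a lipid-sensing receptor on chromosome 17 from 48346401 to 48352276, measured 5.01, 4.90 and 4.63 FPKM in controls and 7.70, 11.3 and 8.07 FPKM in mutants. For both genes the groups were well separated, and the log2 change of Trem2 was 0.76 (SE 0.15, 95% interval 0.41 to 1.11, adjusted p = 0.043). Trem2 measured far below its adapter in every library. Fcer1g, the common gamma chain of activating Fc receptors, measured 46.0, 37.3 and 53.7 FPKM in controls and 63.0, 78.9 and 62.1 FPKM in mutants. Its groups did not overlap (1.49-fold, log2 change 0.57, SE 0.15, adjusted p = 0.089).

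None of the Fc receptors themselves was called. Fcgr3, a low-affinity IgG receptor, measured 11.05, 9.61 and 10.8 FPKM in controls and 12.5, 15.6 and 11.8 FPKM in mutants (1.27-fold, adjusted p = 0.20). The groups did not overlap, but the gap was small. Fcgr1, the high-affinity receptor, measured 1.77, 0.860 and 1.26 FPKM in controls and 1.71, 2.49 and 1.58 FPKM in mutants, with overlapping groups (1.48-fold, adjusted p = 0.33). The inhibitory receptor Fcgr2b was under the filter and ranged from 0.194 to 0.322 FPKM in controls and from 0.178 to 0.969 FPKM in mutants, a ratio of means of 2.03. Cd33, an inhibitory sialic acid receptor, was likewise under the filter, at 0.225 to 0.942 and 0.797 to 1.14 FPKM. Fcgr2b, Fcgr3 and Fcgr4 are related neighbouring genes on chromosome 1, and how shared reads were assigned to them is not stated in the labels.

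The 3 genes of complement C1q encode the chains that assemble into 1 protein, and they lie together on chromosome 4 between 136880145 and 136898844, a span of 18700 bases. C1qa measured 13.4, 15.0 and 12.4 FPKM in controls and 20.9, 30.0 and 19.0 FPKM in mutants. C1qb measured 56.0, 23.9 and 33.8 FPKM in controls and 56.9, 99.5 and 61.2 FPKM in mutants. C1qc measured 31.4, 26.9 and 31.1 FPKM in controls and 44.2, 60.7 and 40.3 FPKM in mutants. In all 3 genes each mutant library was above each control library and mutant library 2 was the highest. In C1qb control library 1 almost reached the lowest mutant library. Log2 changes were 0.71 (SE 0.17, adjusted p = 0.068) for C1qa, 0.96 (SE 0.32, adjusted p = 0.14) for C1qb and 0.66 (SE 0.16, adjusted p = 0.065) for C1qc. None of the 3 was called, and C1qb had the widest spread of the 3 in both groups. With a common sum of FPKM, C1qa and C1qc were among the 11 called members, while 7.38% of all tested genes were called higher.

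**Figure D3:**
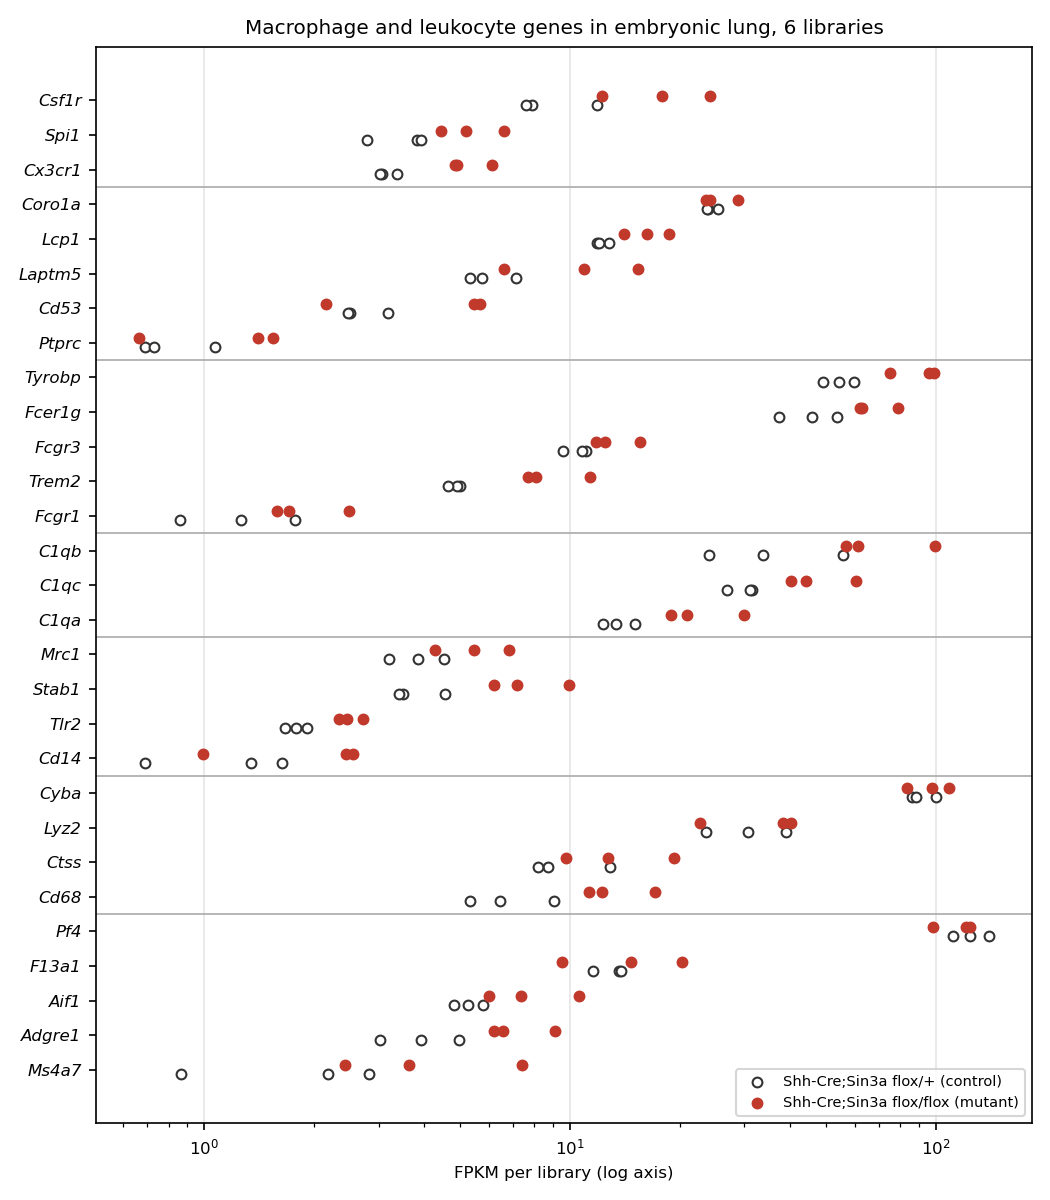
FPKM of the 29 tested members in each library on a log axis, controls as open and mutants as red circles, with lines between roles. In 16 of the 29 genes the groups are separated, the 3 called genes Cx3cr1, Tyrobp and Trem2 among them. In the others the circles overlap, Pf4, Cyba, Coro1a, Lyz2 and F13a1 among them.

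Scavenger and pattern recognition receptors had positive changes and no call. Stab1, an endocytic receptor of macrophages that sinusoidal endothelium also expresses, measured 3.50, 3.41 and 4.55 FPKM in controls and 6.20, 9.93 and 7.19 FPKM in mutants. The mutants lay above the controls with a clear gap, 2.03-fold on average (log2 change 0.85, SE 0.18, adjusted p = 0.051). Its locus also holds Nt5dc2, so the boundaries in the table are shared. Mrc1, the mannose receptor CD206, measured 3.84, 3.21 and 4.54 FPKM in controls and 5.46, 6.81 and 4.27 FPKM in mutants. Control library 3 exceeded mutant library 3 (1.43-fold on average, adjusted p = 0.22). Tlr2, a sensor of bacterial lipoproteins, measured 1.91, 1.78 and 1.66 FPKM in controls and 2.34, 2.72 and 2.47 FPKM in mutants, without overlap (1.40-fold, adjusted p = 0.17). Cd14, its co-receptor for bacterial products, ranged from 0.690 to 1.64 FPKM in controls and from 0.994 to 2.56 FPKM in mutants (adjusted p = 0.41). The haemoglobin scavenger Cd163 stood at the floor of 0.01 FPKM in 5 libraries and at 0.0126 FPKM in mutant library 3.

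Genes of the phagocyte lysosome and oxidase were split. Cd68, a lysosomal glycoprotein of phagocytes, measured 9.06, 6.45 and 5.34 FPKM in controls and 12.3, 17.1 and 11.3 FPKM in mutants. The groups did not overlap and the mean ratio was 1.95 (log2 change 0.88, SE 0.21, adjusted p = 0.065). Ctss, the lysosomal protease cathepsin S, ranged from 8.19 to 12.8 FPKM in controls and from 9.77 to 19.3 FPKM in mutants (adjusted p = 0.35). Lyz2, the macrophage lysozyme, measured 39.1, 23.5 and 30.6 FPKM in controls and 40.1, 38.3 and 22.7 FPKM in mutants. These groups overlapped over nearly their whole range (1.08-fold, 95% interval of the log2 change -0.49 to 0.69). Its close paralog Lyz1 measured at most 0.442 FPKM in any library. Cyba, the p22phox subunit of the oxidase, which many cell types express, measured 99.96, 86.0 and 88.5 FPKM in controls and 83.7, 109 and 97.9 FPKM in mutants (95% interval -0.20 to 0.35). Cybb, the catalytic subunit gp91phox of phagocytes, was under the filter at 0.518 to 0.810 and 0.491 to 1.05 FPKM, as was Mpeg1, a pore-forming protein of phagocytes, at 0.271 to 1.39 and 0.810 to 2.04 FPKM.

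Pan-leukocyte genes included some of the smallest changes. Ptprc (CD45), the phosphatase on all leukocytes, measured only 0.690, 0.728 and 1.07 FPKM in controls and 1.54, 1.40 and 0.663 FPKM in mutants. Mutant library 3 was the lowest of all 6 (adjusted p = 0.50). Laptm5, a lysosomal membrane protein of blood cells, measured 5.76, 5.33 and 7.11 FPKM in controls and 6.61, 15.4 and 10.96 FPKM in mutants, with mutant library 1 inside the control range (1.81-fold, adjusted p = 0.17). Lcp1 (L-plastin), an actin bundler, measured 11.9 to 12.8 FPKM in controls and 14.1, 18.7 and 16.3 FPKM in mutants. Its groups did not overlap (1.34-fold, log2 change 0.39, SE 0.12, adjusted p = 0.11), and its locus in the table also holds 5 other genes. Coro1a, an actin-binding coronin of leukocytes, measured 25.4, 23.8 and 23.7 FPKM in controls and 23.6, 28.8 and 24.2 FPKM in mutants (95% interval -0.18 to 0.30). The tetraspanin gene Cd53 ranged from 2.48 to 3.18 FPKM in controls and from 2.15 to 5.68 FPKM in mutants (adjusted p = 0.37). Cd84, a homophilic receptor of the SLAM family, and Apbb1ip, an integrin-activating adapter, were under the filter. Cd84 ranged from 0.454 to 1.07 and from 0.943 to 1.67 FPKM, and Apbb1ip from 0.0921 to 0.485 and from 0.137 to 0.306 FPKM.

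Remaining genes of macrophage identity fell into 2 patterns. Adgre1, which encodes the F4/80 antigen, measured 3.93, 3.03 and 4.97 FPKM in controls and 6.57, 9.09 and 6.19 FPKM in mutants. The groups did not overlap (1.83-fold, log2 change 0.74, SE 0.19, adjusted p = 0.080). Aif1 (Iba1), a calcium-binding protein of macrophages, measured 5.26, 4.83 and 5.77 FPKM in controls and 6.00, 10.6 and 7.36 FPKM in mutants, again without overlap (adjusted p = 0.18). Ms4a7, a membrane protein of tissue macrophages, measured 2.83, 2.18 and 0.866 FPKM in controls and 3.63, 7.41 and 2.42 FPKM in mutants. It had the highest ratio of means, 2.29, and also overlapping groups (adjusted p = 0.23). Pf4 and F13a1 are expressed in megakaryocytes as well as in fetal macrophages. F13a1, the A subunit of coagulation factor XIII, measured 13.7, 11.6 and 13.8 FPKM in controls and 14.7, 20.3 and 9.50 FPKM in mutants (95% interval -0.43 to 0.68). Pf4, platelet factor 4, was the most abundant member at 112, 140 and 124 FPKM in controls and 98.1, 124 and 121 FPKM in mutants (log2 change -0.13, 95% interval -0.42 to 0.16, adjusted p = 0.57).

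Platelet and megakaryocyte genes were measured beside Pf4. Of 10 tested genes in that list 0 were called, the median log2 change was 0.11, and the summed level was 31.4 to 59.9 FPKM in controls and 30.4 to 49.9 FPKM in mutants. Ppbp, the platelet chemokine encoded next to Pf4 in the chemokine cluster, measured 11.5, 27.2 and 16.9 FPKM in controls and 10.6, 15.0 and 15.3 FPKM in mutants. As for Pf4, control library 2 was the highest and mutant library 1 the lowest. Itgb3 and Vwf had log2 changes of 0.38 and 0.23 (adjusted p = 0.28 and 0.68).

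Further macrophage genes outside the members were measured from other lists. Of 29 tested genes of fetal and tissue-resident macrophages, 5 rose and 0 fell, and the median log2 change was 0.34. Those 5 were Apoe, Axl, Grn, Ctsb and Fcrls. Apoe, the lipid carrier, measured 276, 227 and 300 FPKM in controls and 421, 577 and 437 FPKM in mutants (log2 change 0.83, adjusted p = 0.036). Fcrls, a marker of microglia and related macrophages, measured 12.3, 9.06 and 11.6 FPKM in controls and 19.0, 26.4 and 17.2 FPKM in mutants (1.90-fold, adjusted p = 0.050). Axl, a receptor for apoptotic cells, rose 1.44-fold, the progranulin gene Grn 1.59-fold and the cathepsin gene Ctsb 1.44-fold. Apoe, Axl, Grn and Ctsb are expressed by many cell types besides macrophages. Of 13 tested lineage regulators and growth factor genes 0 were called, with a median of 0.29, with Vav1 at a log2 change of 0.51 (adjusted p = 0.086) and Maf at 0.61 (adjusted p = 0.090). Csf1, the ligand of Csf1r, measured 4.64, 4.73 and 4.01 FPKM in controls and 5.17, 5.97 and 5.94 FPKM in mutants (1.28-fold, adjusted p = 0.18), while the second ligand gene, Il34, stayed at or under 0.411 FPKM in every library.

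Other immune functions gave no call. The monocyte and chemokine list had 0 called of 11 tested and a median log2 change of 0.13, with Fn1 at 0.50 (adjusted p = 0.081), Cxcl12 at 0.44 (0.17) and Ccl3 at 0.43 (0.28). The monocyte markers Ccr2 and Ly6c2 were at most 0.331 and 0.383 FPKM in any library. Antigen presentation had 0 of 6 and a median of 0.13. In that list Batf3 had a log2 change of -0.81 (adjusted p = 0.10) and Zbtb46 of 0.24 (adjusted p = 0.22). Cd74, the invariant chain of MHC class II, measured 0.689 to 1.29 FPKM in controls and 0.923 to 1.40 FPKM in mutants. Of the Toll-like receptor and cytokine list only 4 of 17 genes passed the filter, 0 were called, and Il6 stood at the floor in all 6 libraries. Among 6 oxidase genes 0 were called, with a median of 0.07, and Ncf1 had a log2 change of 0.37 (adjusted p = 0.19).

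Some lymphocyte markers were at the floor and others above it. At 0.01 FPKM in all 6 libraries were 4 of 14 T and NK cell genes (Cd3d, Cd3e, Ncr1 and Gzma) and 2 of 9 B cell genes, Pax5 among them. Low values above the floor were those of Cd3g (at most 0.362 FPKM), Cd247 (at most 0.397 FPKM) and Cd79a (at most 0.156 FPKM). Of 3 tested T and NK cell genes and 2 tested B cell genes 0 were called. Lck, a kinase of T cells, measured 6.59 to 7.73 FPKM in controls and 7.49 to 8.77 FPKM in mutants. Cd79b, a chain of the B cell receptor, measured 2.12, 2.58 and 2.86 FPKM in controls and 4.38, 3.66 and 3.60 FPKM in mutants, without overlap (log2 change 0.47, adjusted p = 0.10). In the mast cell and basophil list 2 of 4 tested genes rose, Hdc and Kit. Kit, a receptor that many other cell types carry, measured 6.43, 6.21 and 6.58 FPKM in controls and 20.2, 17.8 and 16.4 FPKM in mutants (log2 change 1.36, adjusted p = 0.0017). Hdc, which makes histamine, rose 10.8-fold. The granule protease genes of mast cells were low in both groups, with Cpa3 at 1.58 to 2.26 and 0.854 to 2.40 FPKM, Tpsab1 at the floor in all 6 libraries and Tpsb2 and Mcpt4 at the floor in all but control library 1.

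**Figure D4:**
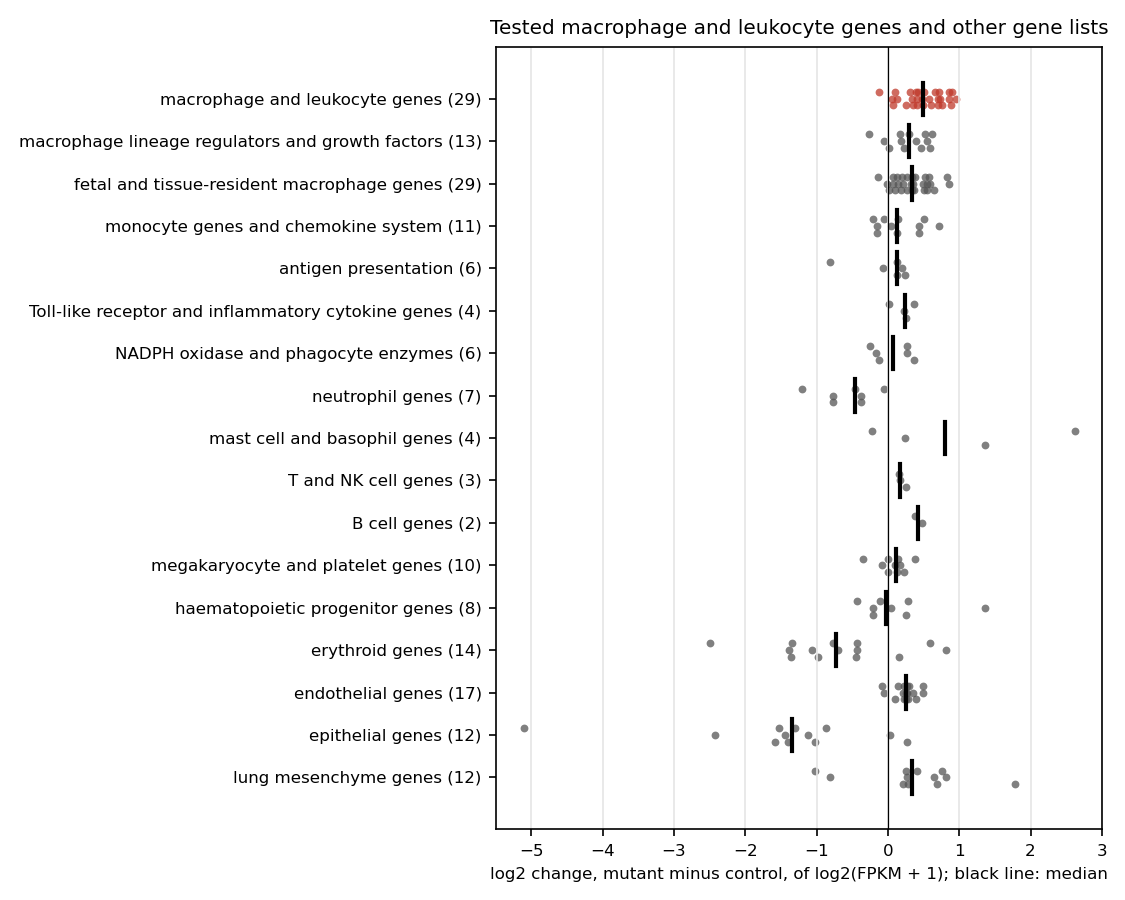
Log2 change of each tested gene, mutant minus control, for the macrophage and leukocyte genes (red) and for the other lists (grey), with the number of tested genes in brackets and the median as a black line. The macrophage and leukocyte genes have a median of 0.49, epithelial genes -1.35, erythroid genes -0.73 and endothelial genes 0.25, and Ptprc is in both the first list and the haematopoietic progenitor list.

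Levels of other cell types of the lung moved alongside. Epithelial genes had 9 of 12 tested members that fell (Epcam, Krt8, Krt18, Nkx2-1, Foxa1, Foxa2, Sftpc, Cldn6 and Rab25) and 0 that rose, and their summed level was 324 to 398 FPKM in controls and 116 to 158 FPKM in mutants. Erythroid genes had 3 of 14 that fell (Hbb-bt, Hbb-y and Tfrc), with summed levels of 23000 to 45800 and 14700 to 19800 FPKM. Endothelial genes had 1 of 17 that rose (Kdr), with overlapping sums of 301 to 334 and 314 to 402 FPKM. Lung mesenchyme genes had 4 that rose (Pdgfra, Col1a2, Col3a1 and Fgf10) and 2 that fell (Foxf1 and Wnt2) of 12, with sums of 1240 to 1460 and 1710 to 2030 FPKM. The summed level of the 36 macrophage and leukocyte genes was 525 to 595 FPKM in controls and 670 to 885 FPKM in mutants. The part of a changed cell makeup in the values of the members was not tested.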

How the data were processed

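The deposited values are FPKM per gene and library, made by the authors with TopHat, Bowtie2 and Cufflinks on mm10 (GRCm38), per the submitters' processing notes; their versions, roles and annotation are not stated. Libraries came from a low-input SMARTer kit with Nextera indices and paired reads, per the labels' protocols, and carry no strand, so overlapping genes cannot be separated. Of 24341 genes, 5537 were at the lowest value, 0.01 FPKM, throughout and 3 with a failure mark were left out.

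From these values log2(FPKM + 1) was computed for the 12742 genes averaging at least 1 FPKM, and mutants were compared with controls by limma 3.58.1 (R 4.3.3) with an intensity trend, 2-sided, adjusted over all tested genes by the Benjamini-Hochberg method. Folds are ratios of mean FPKM. The log2 scale with a pseudocount of 1 understates changes of low genes. Relative depth was the mode of ratios of values up to 0.3 FPKM. Loci are counted from 1. Plots were drawn with matplotlib 3.10.9. The fit was tested on simulated data.

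The members, the other lists and the tests were chosen with earlier results of these data known. All members in the table are named. Of each other list, the called genes or otherwise at most 3 with the smallest p are named. Named for their role or level, outside this rule, were Csf1, Il34, Ccr2, Ly6c2, Il6, Cpa3, Tpsab1, Tpsb2, Mcpt4, Lyz1, Fcgr4 and Nt5dc2. So were S100a9, Camp, Mpo, Prtn3, Cd3g, Cd247 and Cd79a, and the lymphocyte markers at the floor.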

Additional observations from a re-analysis of the deposited data

How the results depend on the processing

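As reported, 3 members were called higher and 426 genes in all. Members called higher numbered 0 with no filter on low values (242 genes in all). At a mean of at least 5 FPKM 1 of 20 tested members was called higher, beside 1.57% of all tested genes (284 genes called in all). The number was 11 with a common sum of FPKM (1071 in all) and 11 without globin and small RNA genes (1024 in all). At an adjusted p under 0.1 it was 10 (1138 in all). Leaving out each library in turn gave 0 to 7 members and 52 to 795 genes. Tyrobp, Trem2 and Cx3cr1 had adjusted p-values of up to 0.17, 0.17 and 0.18 over all alternatives, with log2 changes of 0.63 to 0.87, 0.60 to 0.90 and 0.51 to 0.73. No member was called lower under any alternative run. The members' median moved by less than the spread between libraries in each one, from 0.37 without mutant library 2 to 0.63 without mutant library 3. Deviations of same-numbered libraries from their group means had correlations of -0.09, -0.08 and -0.03. With 3 libraries per group these values cannot decide whether the replicate numbers pair the libraries. With a replicate block 0 members and 52 genes were called. Signs turned for Pf4 with a common sum (0.032), and with libraries left out for Lyz2 (-0.080 to 0.36), Coro1a (-0.023 to 0.11), Cyba (-0.013 to 0.18) and F13a1 (-0.12 to 0.39); the cause was not tested. Low values are least precise in control library 3 and mutant library 1, where depth was lowest.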

Other observations

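Several neutrophil granule genes varied widely between libraries of both groups. S100a8 measured 123, 13.3 and 74.2 FPKM in control libraries 1 to 3 and 49.0, 79.4 and 1.73 FPKM in mutant libraries 1 to 3. S100a9, Camp, Ngp and Ltf had the same order of libraries as S100a8 within each group, with control library 1 the highest and control library 2 the lowest, and mutant library 2 the highest and mutant library 3 the lowest. Mpo and Prtn3, the other tested genes of the neutrophil list, did not have this order. Mpo ranged from 1.01 to 2.245 FPKM in controls and from 0.091 to 3.68 FPKM in mutants. Prtn3 varied little in controls, at 4.46 to 4.65 FPKM, and ranged from 2.99 to 5.805 FPKM in mutants. Of 7 tested neutrophil genes 0 were called. Their median difference from the control means was 1.16, -1.17 and 0.01 on the log2 scale in the controls and -0.14, 0.62 and -2.36 in the mutants. Of the 3 called members Tyrobp had this order too, while Trem2 and Cx3cr1 did not. Tyrobp ranged from 49.2 to 59.8 FPKM in controls and from 74.8 to 98.8 FPKM in mutants. Fcgr1, Fcgr3 and C1qc, which were not called, also had this order, and its share over all genes was not counted.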
